A study of Mus musculus with 12 samples.

Results

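The genes described here are a set of 32 that make cholesterol and fatty acids or control that synthesis, taken as a named list of symbols. Of these, 31 had a probe set on the array, out of 19938 genes measured, and each gene was read from its brightest probe set. Acat2, the cytosolic enzyme that joins acetyl-CoA units at the start of the pathway, had none. By role the measured genes were 6 enzymes of the mevalonate arm, 10 enzymes of the sterol arm, 5 regulators of the SREBP system, 4 genes of sterol transport and efflux, and 6 genes of fatty acid synthesis.

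The samples were mouse R1 embryonic stem cells, a line that grows as pluripotent colonies, hybridised singly to 12 1-colour Affymetrix arrays. Lines KD1 and KD2 carried a knockdown of Set, which encodes a histone chaperone and phosphatase inhibitor, and the third line carried a scrambled control, so that all 3 lines had been infected. Each line was profiled with 2 biological replicates after 4 days of retinoic acid (RA, 1 µM) in 10% serum without leukemia inhibitory factor (LIF), and with 2 as undifferentiated ESC in 15% serum with 1000 U/ml LIF. Retinoic acid, serum and LIF therefore differed together between the RA and ESC states and cannot be told apart. The labels call the lines clones and give 1 line for each knockdown, so a knockdown and its line cannot be told apart either. Values are the deposited log2 intensities, on which a difference of 1 is a 2-fold change.

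The array medians lay between 7.17 and 7.24. The array labelled ESC KD2 replicate 2 correlated better with the RA arrays (mean r = 0.989 over all probe sets) than with the other ESC arrays (0.968), and the array labelled RA KD2 replicate 2 correlated better with the ESC arrays (0.989) than with the other RA arrays (0.967). The mean of 12 naive pluripotency markers was 8.28 to 8.99 in the other 5 RA arrays and 11.11 to 11.52 in the other 5 ESC arrays, but 11.48 in RA KD2 replicate 2 and 9.08 in ESC KD2 replicate 2. Both displaced arrays were kept under their labels in the fit of all 12 arrays. Each result is also given from a fit of 10 arrays without them, in which each KD2 group is 1 array and its spread is taken from the remaining groups. The 2 brightest probe sets annotated to Set, both of which also carry the symbol BC085271, read lower in every knockdown array than in both scrambled arrays of its state: 11.16 to 11.99 against 12.27 to 12.29 after RA for the brighter one, and 11.87 to 12.15 against 12.71 to 12.93 in ESC. A further 2 probe sets, dimmer and with Set as their only symbol, did not read lower in every knockdown array. The brighter of them read 6.61 to 7.91 in knockdown and 6.45 to 6.68 in scrambled arrays after RA, and 6.91 to 8.54 in knockdown and 8.39 to 8.82 in scrambled arrays in ESC. Of these values, 7.91 and 6.91 are those of the displaced KD2 arrays. In ESC KD1 arrays that probe set read 8.12 and 7.90, below both ESC scrambled arrays. A lower reading in every knockdown array therefore shows only in probe sets that are not specific to Set.

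Cells build cholesterol from acetyl-CoA. The mevalonate arm makes farnesyl diphosphate, and the sterol arm joins it to squalene, closes the rings and trims the product to cholesterol. The genes of both arms are switched on by SREBP transcription factors, which Scap escorts out of the endoplasmic reticulum when sterols are low and which Insig1 and Insig2 hold back when sterols are high. Insig1 is itself an SREBP target. When sterols accumulate, LXR receptors switch on the efflux pumps Abca1 and Abcg1 and the ubiquitin ligase Mylip. Pluripotent cells divide fast and make much of their membrane lipid themselves.

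Insig1 had the largest KD1 difference after RA, and Hmgcs1 and Idi1 are mevalonate arm enzymes that were lower after RA. Ebp is a sterol isomerase that read higher in KD1 after RA, a difference that did not pass in the fit of 12 arrays. For these 4 genes, on which the results turn, promoter sequences were taken from RefSeq (build GRCm38.p6). Each is the 250 bases before the annotated start, 5′ to 3′ on the strand of the gene, with matches to the sterol regulatory element core, the CCAAT box and the E-box named below in capitals. They lie at chr5:28071162-28071411 (plus strand) for Insig1, chr13:119690101-119690350 (plus strand) for Hmgcs1, chr13:8885356-8885605 (plus strand) for Idi1 and chrX:8193513-8193762 (minus strand) for Ebp.
Insig1: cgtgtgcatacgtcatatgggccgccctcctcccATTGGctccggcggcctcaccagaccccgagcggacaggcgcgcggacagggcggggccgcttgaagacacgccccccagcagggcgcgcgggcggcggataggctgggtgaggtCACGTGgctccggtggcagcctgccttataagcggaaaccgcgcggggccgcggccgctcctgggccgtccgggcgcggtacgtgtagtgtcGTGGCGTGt
Hmgcs1: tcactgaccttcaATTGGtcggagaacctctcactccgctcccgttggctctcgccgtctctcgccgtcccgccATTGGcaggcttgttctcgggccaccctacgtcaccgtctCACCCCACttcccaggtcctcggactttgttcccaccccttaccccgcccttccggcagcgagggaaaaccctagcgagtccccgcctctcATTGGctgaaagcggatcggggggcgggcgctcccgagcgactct
Idi1: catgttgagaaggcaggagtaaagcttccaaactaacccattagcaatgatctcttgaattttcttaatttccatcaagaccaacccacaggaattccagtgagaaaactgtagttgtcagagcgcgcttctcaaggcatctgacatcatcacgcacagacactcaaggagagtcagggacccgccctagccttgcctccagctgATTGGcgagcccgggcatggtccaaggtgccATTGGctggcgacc
Ebp: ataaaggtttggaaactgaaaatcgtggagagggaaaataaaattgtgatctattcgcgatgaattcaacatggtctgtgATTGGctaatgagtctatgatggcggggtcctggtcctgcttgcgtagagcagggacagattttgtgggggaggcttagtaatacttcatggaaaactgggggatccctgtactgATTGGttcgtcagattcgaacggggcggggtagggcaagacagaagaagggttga

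The 32 start windows that RefSeq gave for 24 of the genes, each 300 bases with 50 after the start, were searched on both strands, as were all 32851 windows in the table. The sterol regulatory element core CACNCCAC, the kind of site that SREBP binds, was present in 2 of 32 windows (6.25%), those of Insig1 at -9 to -2 and Hmgcs1 at -136 to -129, against 6.24% of all windows. The longer form TCACNCCAC, which contains the core, was found in Hmgcs1 alone (3.12% of windows, against 1.24% of all). The CCAAT box, bound by the SREBP partner NF-Y and searched as CCAAT, was in 21 windows (65.6%) of 20 genes, against 37.4% of all windows. The E-box CACGTG was in 7 windows (21.9%) of 6 genes, Insig1 and Abca1 among them, against 7.15% of all windows. In Insig1 the CCAAT box lay at -216 to -212 and the E-box at -101 to -96. These matches are letters in a window and were not measured as bound sites, and the motifs were chosen after the expression values were known.

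**Figure D1:**
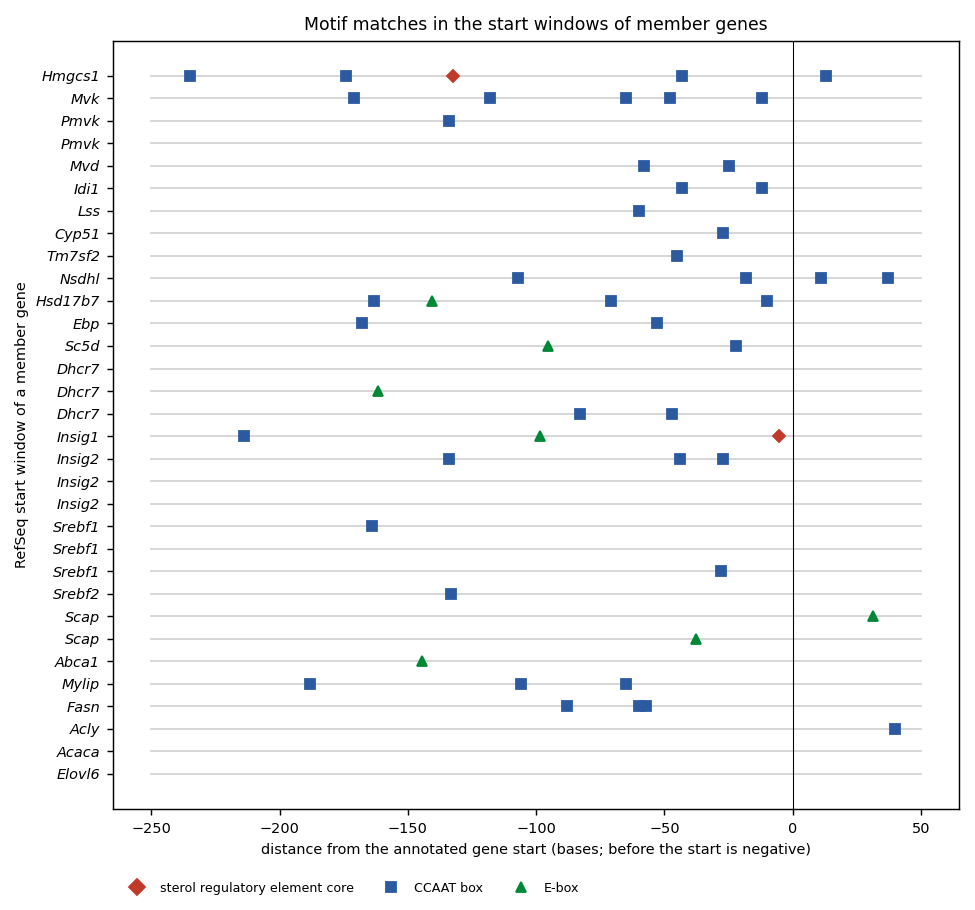
Motif matches in the 32 start windows of 24 member genes. The x axis is the distance from the annotated start in bases, each grey line is 1 RefSeq window, and marks show the sterol regulatory element core (diamonds), the CCAAT box (squares) and the E-box (triangles). The sterol element core is in 2 windows, Hmgcs1 and Insig1, and the CCAAT box in 21.

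The comparison of RA with ESC asks how the pathway stood in cells that had left pluripotency. In scrambled cells most of the pathway read lower after RA: 13 of the 16 cholesterol enzymes had a negative difference, as did 10883 of 19938 genes. The enzyme differences had a median of -0.42 and a range of -1.52 to 0.64. In the fit of 12 arrays 6 of 31 members passed the test (limma, Benjamini-Hochberg adjusted p under 0.05 over all genes), against 13.8% of all genes (8.14% higher and 5.66% lower). Abca1 rose, and Idi1, Lss, Fdft1, Insig1 and Elovl6 fell. Without the 2 displaced KD2 arrays 18 members passed, 5 higher and 13 lower, against 42.6% of all genes (21.8% higher and 20.8% lower). The median member difference was -0.23, beside -0.04 for all genes. The count in 12 arrays fell to 0 when any 1 scrambled or KD1 array was left out and was 11 to 14 without any 1 KD2 array, while 12 to 17 members passed when 1 more array was left out of the 10. With the replicate number as a block within each state, 10 members passed in 12 arrays, against 25.9% of all genes, and 25 in 10 arrays, against 51.6%. The block added Ebp, Mylip, Sc5d and Scap in 12 arrays, and Cyp51, Ebp, Fasn, Insig2, Nsdhl, Srebf2 and Tm7sf2 in 10 arrays. The calls of single genes below are without the block. In scrambled cells the RA and ESC arrays did not overlap for 83.9% of members, against 69.3% of all genes.

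In the mevalonate arm the values of Idi1, the isomerase that makes the reactive isoprene unit, were 9.38 and 9.28 in RA scrambled arrays, against 11.04 and 10.66 in ESC scrambled arrays. The groups did not overlap, and Idi1 fell by 1.52 after RA, to 34.8% of its ESC signal (SE 0.35, adjusted p = 0.0397 in 12 arrays, 8.89e-05 in 10). A second Idi1 probe set read 9.41 and 9.22 after RA, against 11.01 and 10.63 in ESC. Mvd, the decarboxylase before Idi1, read 9.54 and 9.44 after RA, against 10.19 and 10.05 in ESC, and fell by 0.63 in the fit of 10 arrays (adjusted p = 0.0156). Pmvk, which adds the second phosphate to mevalonate, read 8.09 and 8.14 after RA, against 8.53 and 8.70 in ESC, and fell by 0.50 (adjusted p = 0.0105 in 10 arrays). Hmgcs1, which makes HMG-CoA, and Fdps, which makes farnesyl diphosphate, fell by 0.40 and 0.41 in the fit of 10 arrays. Mvk, the mevalonate kinase, was the member of this arm with a difference near 0 (-0.04, adjusted p = 0.82).

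In the sterol arm the values of Lss, the cyclase that makes lanosterol, were 9.57 and 9.45 in RA scrambled arrays, against 10.43 and 10.64 in ESC scrambled arrays. Lss fell by 1.03, to 49.1% of its ESC signal (adjusted p = 0.0465 in 12 arrays, 0.000759 in 10). Fdft1, the squalene synthase that commits farnesyl diphosphate to sterols, fell by 0.43 in both fits (adjusted p = 0.0473 in 12 arrays). Sqle, the squalene epoxidase, and Dhcr7, a late reductase, each fell by 0.54 in the fit of 10 arrays. Nsdhl, a sterol dehydrogenase, read 10.45 and 10.43 after RA, against 10.69 and 10.74 in ESC, without overlap, and its difference of -0.28 did not pass (adjusted p = 0.0578 in 10 arrays). Cyp51, the lanosterol demethylase, read 9.60 and 9.28 after RA, against 9.63 and 9.87 in ESC, and Ebp read 9.04 and 9.25, against 9.84 and 9.39. Neither passed without the block. The desaturase Sc5d went the other way: it read 10.52 and 10.37 after RA, against 9.78 and 9.84 in ESC, and rose by 0.64 in the fit of 10 arrays (adjusted p = 0.002). Tm7sf2, a sterol reductase, and Hsd17b7, a ketosterol reductase, also had positive differences (0.38 and 0.23) that did not pass.

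Among the regulators, Insig1 read 10.30 and 10.47 in RA scrambled arrays, against 11.08 and 11.52 in ESC scrambled arrays. The groups did not overlap, and Insig1 fell by 0.91 after RA, to 53.2% (adjusted p = 0.0292 in 12 arrays, 0.00119 in 10). Scap read 10.66 and 10.58 after RA, against 9.89 and 9.69 in ESC, and rose by 0.83 in the fit of 10 arrays (adjusted p = 0.000428). The SREBP genes Srebf1 and Srebf2 and the second anchor Insig2 had differences of 0.21, -0.23 and 0.34, none of which passed without the block.

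Of the transport genes, Abca1 read 10.20 and 9.90 in RA scrambled arrays, against 8.36 and 8.31 in ESC scrambled arrays. It rose by 1.71, or 3.28-fold (SE 0.33, adjusted p = 0.0327 in 12 arrays, 2.08e-05 in 10). Abcg1, its partner in efflux, read 8.47 and 8.37 after RA, against 8.99 and 9.50 in ESC, and fell by 0.83 in the fit of 10 arrays (adjusted p = 0.00541). Mylip, the ligase that marks lipoprotein receptors for breakdown, rose by 0.68 in that fit. Stard4, which carries sterol between membranes, read 8.94 and 9.06 after RA, against 9.01 and 9.27 in ESC, and these groups overlapped. Abca1, Abcg1 and Mylip, the LXR targets named above, thus did not share a direction.

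In fatty acid synthesis the elongase Elovl6 read 11.08 and 11.44 after RA, against 11.86 and 12.05 in ESC, and fell by 0.69 (adjusted p = 0.0372 in 12 arrays, 0.00142 in 10). Acly, which supplies cytosolic acetyl-CoA, read 11.56 and 11.49 after RA, against 11.76 and 11.76 in ESC, and fell by 0.23 in the fit of 10 arrays (adjusted p = 0.0497). The desaturase Scd2 rose by 0.54 in that fit, reading 13.31 and 13.33 after RA, against 12.83 and 12.73 in ESC. Its relative Scd1 read 11.69 and 11.70 after RA, against 11.90 and 11.76 in ESC, and did not pass. Fasn, the fatty acid synthase, and Acaca, the carboxylase that makes malonyl-CoA, had differences of -0.21 and -0.19 that did not pass either. From whole cultures, fewer cells of a type and less RNA per cell cannot be told apart in any of these differences.

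**Figure D2:**
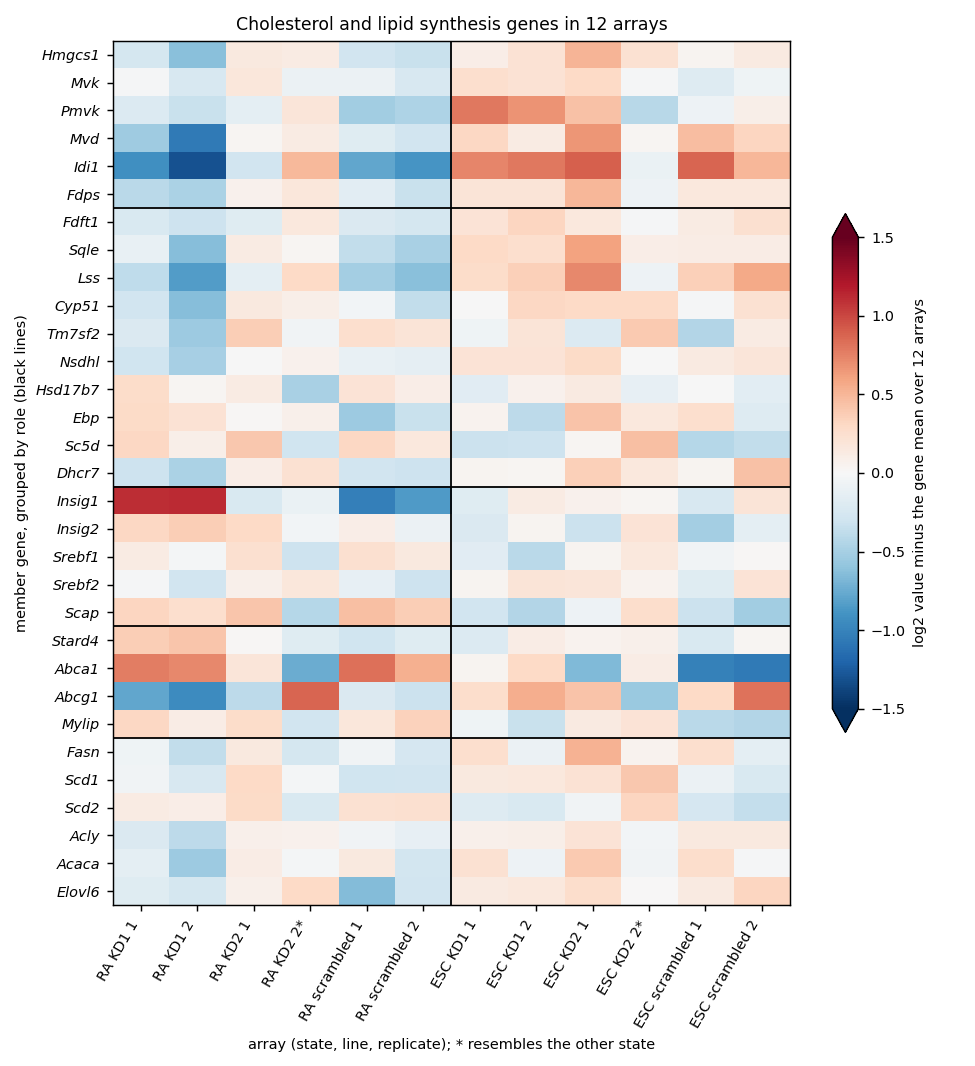
Log2 value of each of 31 member genes in each of 12 arrays, as the difference from the gene's mean over all arrays (blue lower, red higher). Rows are genes grouped by role and columns are arrays, RA left of ESC, with an asterisk on the 2 arrays that resemble the other state. Idi1 and Lss are blue in the scrambled and KD1 arrays after RA and red in ESC, and Insig1 is the reddest cell of both RA KD1 arrays.

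KD1 cells made the same comparison with arrays of their own. In the fit of 12 arrays 8 of 31 members passed, 1 higher (Insig1) and 7 lower (Idi1, Mvd, Pmvk, Hmgcs1, Fdps, Fdft1 and Nsdhl), against 11.3% of all genes (7.02% higher and 4.26% lower). The fit of 10 arrays gave 22, 7 higher and 15 lower, against 41% of all genes (20.3% higher and 20.8% lower). The count in 12 arrays was 0 to 3 when any 1 scrambled or KD1 array was left out, and that in 10 arrays was 14 without RA KD1 replicate 2. With the replicate block 12 members passed in 12 arrays, against 20.7% of all genes, with Acly, Cyp51, Fasn and Sqle added, and 30 in 10 arrays, against 51%. All 6 enzymes of the mevalonate arm had negative differences in both lines, and the median over the arm was -0.82 in KD1, against -0.45 in scrambled cells, a difference that was not tested. Idi1 read 9.24 and 8.86 in RA KD1 arrays, against 10.89 and 10.95 in ESC KD1 arrays, and fell by 1.87, to 27.3% (adjusted p = 0.0181 in 12 arrays). Mvd read 9.19 and 8.67, against 10.03 and 9.85, and fell by 1.01. Pmvk read 8.40 and 8.27, against 9.40 and 9.28, and fell by 1.00.

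In the sterol arm of KD1 cells Lss read 9.70 and 9.24 after RA, against 10.35 and 10.43 in ESC, and fell by 0.92 in the fit of 10 arrays (adjusted p = 0.00156). Nsdhl read 10.26 and 10.06 after RA, against 10.76 and 10.76 in ESC, and fell by 0.59 (adjusted p = 0.0341 in 12 arrays). Cyp51 read 9.36 and 9.01, against 9.64 and 9.96, and fell by 0.62 in the fit of 10 arrays (adjusted p = 0.0225). Neither gene overlapped between the states, which in KD1 cells held for 93.5% of members and 74.4% of all genes. Of the regulators, Scap read 10.54 and 10.46 after RA, against 9.93 and 9.77 in ESC, and rose by 0.65 in the fit of 10 arrays. Abcg1 read 7.91 and 7.75, against 8.95 and 9.24, and fell by 1.27 in that fit, while Abca1 rose by 0.57.

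Of the 31 members, 27 had the same sign in the 2 lines, 19 of them lower and 8 higher after RA. In the fit of 10 arrays 12 passed as lower in both lines: Hmgcs1, Pmvk, Mvd, Idi1, Fdps, Fdft1, Sqle, Lss, Dhcr7, Abcg1, Acly and Elovl6. Another 5 passed as higher in both: Sc5d, Scap, Abca1, Mylip and Scd2. The members with opposite signs were Insig1, Ebp, Stard4 and Tm7sf2, and Insig1 passed in opposite directions. Over the members the differences of the 2 lines, which share no array, had Pearson's r = 0.651, or 0.822 without Insig1, against 0.854 over all 19938 genes. This describes genes and gives no test. The shares of all genes with the same sign, or passing the same way, in both lines were not counted. Within each line alone 20.8% of all genes passed as lower in 10 arrays. As higher, 21.8% passed in scrambled and 20.3% in KD1 cells.

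**Figure D3:**
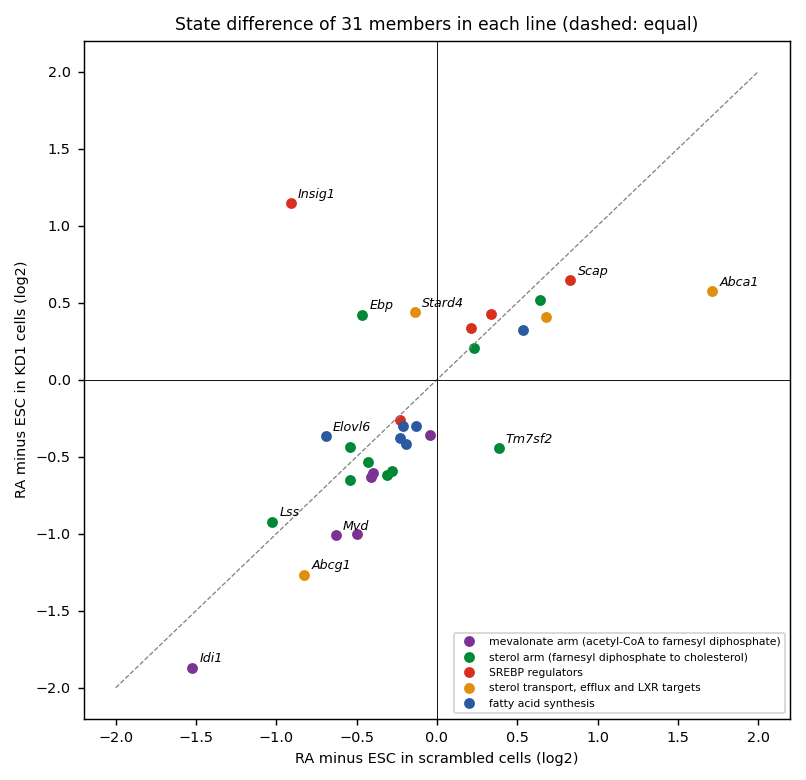
RA minus ESC difference (log2) of 31 member genes in KD1 cells (y axis) against that in scrambled cells (x axis), coloured by role. The dashed line marks equal differences. Idi1 is lowest in both lines, Insig1 lies at -0.91 in scrambled and 1.15 in KD1 cells, and Abca1 lies at 1.71 in scrambled and 0.57 in KD1 cells.

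In KD2 cells the labelled groups each held 1 array that resembled the other state, and 0 members passed in the fit of 12 arrays (limma), as did 0% of all genes, with 0 members and 344 genes at an unadjusted p under 0.05. With the 1 remaining array of each state, 6 members passed in the fit of 10 arrays, against 20.5% of all genes (11% higher and 9.46% lower), and 16 with the replicate block, against 28.4%. Idi1 read 9.88 in the RA array and 11.06 in the ESC array and fell by 1.17 (adjusted p = 0.0084). Without the block Lss, Pmvk and Fdps also fell, and Abca1 and Scd2 rose. The Pmvk call was lost in 6 and the Fdps call in 4 of the 8 fits that left out 1 more scrambled or KD1 array. Each of these 6 had the same sign in the other 2 lines.

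The comparison of knockdown with scrambled cells after RA asks how the pathway in each knockdown line stood beside scrambled cells in the differentiated state. In KD1 cells Insig1 stood out: it read 12.43 and 12.45 in RA KD1 arrays, against 10.30 and 10.47 in RA scrambled arrays. The groups were far apart, and Insig1 rose by 2.05, or 4.16-fold (SE 0.16, limma adjusted p = 0.000639 in 12 arrays, 7.25e-05 in 10). The RA KD1 values were also above all 4 ESC values of the scrambled and KD1 lines (11.08 to 11.52). Insig1 was the 1 member of 31 that passed in the fit of 12 arrays, against 2.32% of all genes (1.58% higher). Of its 6 nearest measured neighbours on the chromosome, chosen after its value was seen, Paxip1 differed by 0.65 and En2 by 0.39, and the other 4 lay between -0.15 and 0.06.

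Without the 2 displaced arrays 3 members passed, all higher, against 12.1% of all genes (5.39% higher). Besides Insig1 these were Stard4, which read 9.61 and 9.65 in RA KD1 arrays, against 8.94 and 9.06 in RA scrambled arrays, a rise of 0.63 or 1.55-fold (adjusted p = 0.0263), and Ebp, which read 9.87 and 9.80, against 9.04 and 9.25, a rise of 0.69 or 1.61-fold (adjusted p = 0.0477). Leaving out either RA scrambled array or RA KD1 replicate 2 from that fit left Insig1 as the 1 member that passed, and without RA KD1 replicate 1 Insig1 and Mvd passed. With the replicate number as a block, 2 members passed in 12 arrays (Insig1 and Ebp), against 2.67% of all genes, and 10 in 10 arrays, against 24% of all genes: 4 higher, with Insig2 added, and 6 lower (Mvd, Nsdhl, Tm7sf2, Abcg1, Acly and Acaca).

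Of the 16 cholesterol enzymes, 0 passed in 12 arrays (limma, 2 at an unadjusted p under 0.05) and 1, Ebp, in 10. Their differences between KD1 and scrambled cells after RA had a median of -0.07 and ran from -0.60 to 0.69. Of these, 5 lay above 0 and 11 below, where 48.3% of all genes lay above 0. Idi1 differed by -0.28, Lss by -0.04, Hmgcs1 by -0.14 and Sqle by 0.05, each with an adjusted p of at least 0.363 in 10 arrays. Mvd differed by -0.56 and Abcg1 by -0.59 (adjusted p = 0.0725 for each in 10 arrays). Of all 31 members, 7 were above the scrambled arrays without overlap and 11 below, together 58.1%, against 56.6% of all genes. RA KD1 replicate 2 read below replicate 1 in 28 of 31 members and in 16 of 16 enzymes, with a median enzyme difference of -0.24, where 51.8% of all genes read lower. Replicate 2 was also the lower one in RA scrambled arrays for 23 of 31 members and 14 of 16 enzymes (median -0.10). Extraembryonic endoderm markers moved with these arrays: 12 of 12 passed as higher in the fit of 10 arrays (6 of 12 in 12 arrays), and their mean was 11.49 and 11.53 in RA KD1 arrays, against 9.06 and 9.23 in RA scrambled arrays. Fibroblast markers averaged 9.11 and 8.87 in RA KD1 arrays, against 9.53 and 9.47, and 8 of 8 had a negative difference. Trophoblast markers averaged 9.07 and 9.20, against 9.28 and 9.47, with 5 differences below 0 and 4 above. Retinoic acid response and Hox genes averaged 10.61 and 10.66, against 11.00 and 10.94, with 8 below 0 and 1 above. The naive pluripotency means overlapped, at 8.68 and 8.46 against 8.28 and 8.85, with 6 markers above 0 and 6 below. The part of these markers in the Insig1, Stard4 and Ebp differences was not tested.

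For KD2 cells after RA 0 members passed in the fit of 12 arrays (limma), against 0.271% of all genes. At an unadjusted p under 0.05 in that fit there were 10 of 31 members, beside 2590 of 19938 genes. Scd1 passed in 10 arrays, against 0.963% of all genes (0.326% higher), reading 12.29 in the 1 RA KD2 array, against 11.69 and 11.70 in RA scrambled arrays, a rise of 0.60 or 1.51-fold (adjusted p = 0.0352). Its call was lost when any 1 RA scrambled, RA KD1 or ESC KD1 array was left out. Insig1 read 11.10 in that array, against 10.30 and 10.47, a difference of 0.72 that did not pass (adjusted p = 0.151), and it passed with the replicate block, where 3 members did (Insig1, Scd1 and Elovl6, against 5.05% of all genes). The cholesterol enzymes of this array sat above the scrambled ones: 15 of 16 read above both scrambled arrays, as did 42.8% of all genes, and their mean was 10.16 in the RA KD2 array, against 9.89 and 9.81 in RA scrambled arrays. Of the 16 enzymes, 0 passed. Naive pluripotency and endoderm means of this array lay above those of both scrambled arrays, and the part of these markers in the difference was not tested. Retinoic acid response and Hox genes averaged 10.92 in this array, against 11.00 and 10.94 in RA scrambled arrays. Fibroblast markers averaged 9.41, against 9.53 and 9.47, and trophoblast markers 9.45, against 9.28 and 9.47. Its naive pluripotency mean was 8.99, against 8.28 and 8.85 in RA scrambled arrays, with 10 of 12 markers above 0 in the fit of 10 arrays and 0 passing, 4 of them at an unadjusted p under 0.05 (limma). Its endoderm mean was 9.96, against 9.06 and 9.23, with 2 of 12 passing as higher.

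**Figure D4:**
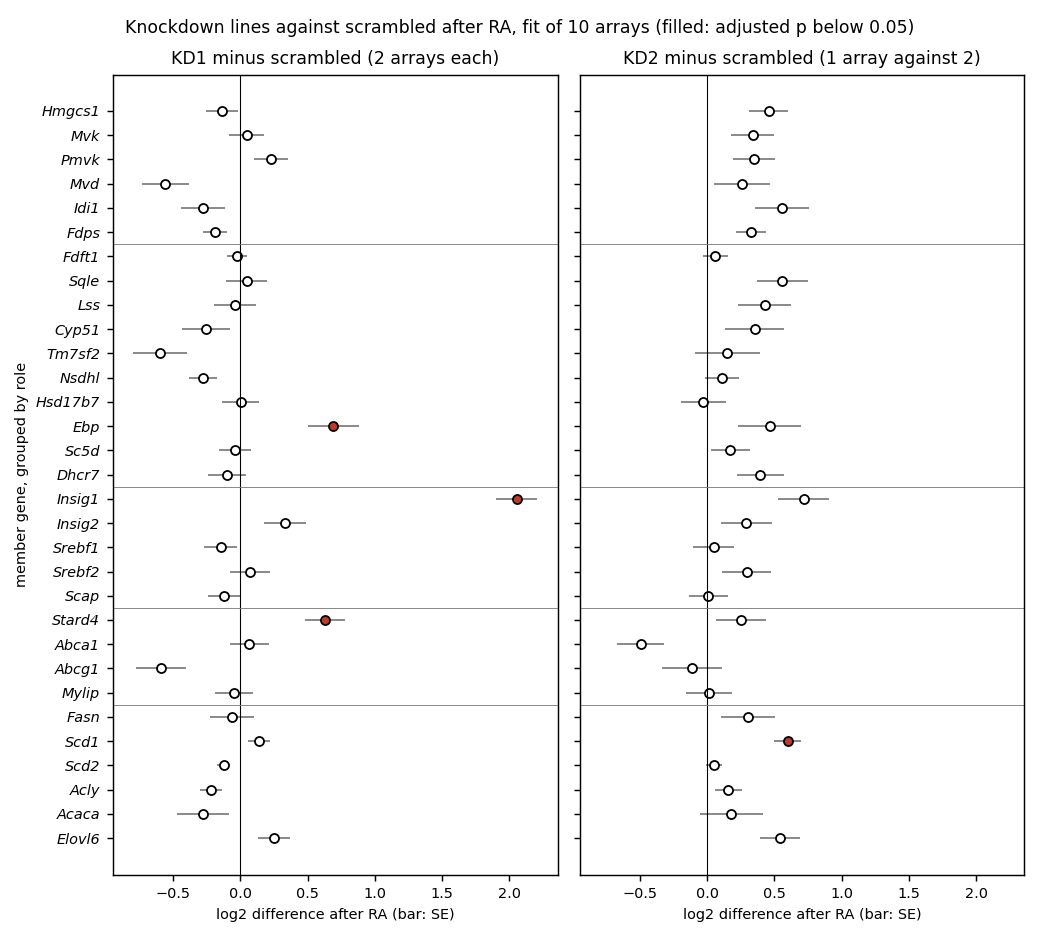
Difference between each knockdown line and scrambled cells after RA (log2, x axis) for 31 member genes by role, from the fit of 10 arrays, with bars of 1 SE. The left panel is KD1 (2 arrays against 2) and the right panel KD2 (1 array against 2). Filled points passed at an adjusted p under 0.05: Ebp, Insig1 and Stard4 in KD1, and Scd1 in KD2.

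In undifferentiated ESC few members passed between the knockdown lines and scrambled cells. For KD1 0 members passed in the fit of 12 arrays (limma), against 0.0652% of all genes. At an unadjusted p under 0.05 in that fit there were 3 of 31 members, beside 1507 of 19938 genes. Without the displaced arrays 2 passed, both higher, against 1.92% of all genes (0.843% higher). Abca1 read 9.41 and 9.67 in ESC KD1 arrays, against 8.36 and 8.31 in ESC scrambled arrays, and rose by 1.21 or 2.31-fold (adjusted p = 0.00559). Pmvk read 9.40 and 9.28, against 8.53 and 8.70, and rose by 0.73 or 1.66-fold (adjusted p = 0.0225). The Pmvk call was lost in 7 of the 8 fits that left out 1 more scrambled or KD1 array, all but the one without ESC scrambled replicate 2. With the replicate block Mvk and Scd1 passed as well, 4 in all and each higher, against 10.5% of all genes. Extraembryonic endoderm markers moved with the ESC KD1 arrays: 5 of 12 passed as higher in 10 arrays and 0 in 12 (limma, 1 at an unadjusted p under 0.05), and their mean was 8.30 and 8.24, against 7.64 and 7.73 in ESC scrambled arrays. Fibroblast markers averaged 8.30 in both ESC KD1 arrays, against 7.97 and 8.14. The part of these markers in the Abca1 and Pmvk differences was not tested. Insig1 read 11.14 and 11.45 in ESC KD1 arrays, against 11.08 and 11.52 in ESC scrambled arrays, so these groups overlapped, as did those of Idi1, at 10.89 and 10.95 against 11.04 and 10.66.

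For KD2 in ESC 0 members passed in either fit (limma, 5 of 31 at an unadjusted p under 0.05 in 12 arrays and 10 in 10 arrays), against 0.0853% and 0.988% of all genes. Hmgcs1 and Sc5d passed with the replicate block in 10 arrays, against 4.21% of all genes, where Hmgcs1 read 11.77 in the ESC KD2 array, against 11.30 and 11.39 in ESC scrambled arrays. Of 31 members, 28 had a difference above 0 in 10 arrays, with 1 ESC KD2 array, and 23 in 12. Of all genes, 51.5% lay above 0 in 10 arrays and 45.8% in 12. The median member difference was 0.25 in 10 arrays, beside 0.01 for all genes. The enzyme mean was 10.48 in that array, against 10.18 and 10.24 in ESC scrambled arrays. Marker means of the ESC KD2 array also lay outside those of the ESC scrambled arrays. They were 8.53 against 7.64 and 7.73 for endoderm and 9.60 against 8.70 and 9.05 for trophoblast. For fibroblast they were 8.31 against 7.97 and 8.14, and for naive pluripotency 11.11 against 11.37 and 11.52. The part of these markers in the member differences was not tested. Between the fits of 12 and 10 arrays 7 of 31 members changed sign in this comparison, among them Idi1 at -0.29 in 12 arrays and 0.20 in 10, and 7 changed sign in KD2 against scrambled cells after RA.

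Whether the change with RA differed between KD1 and scrambled cells was tested as an interaction. Insig1 was the 1 member that passed in 12 arrays, against 0.261% of all genes. Insig1 (higher) and Abca1 (lower) passed in 10 arrays, against 4.82% of all genes (2.54% higher and 2.28% lower). Insig1 read 12.43 and 12.45 in RA KD1 arrays and 11.14 and 11.45 in ESC KD1 arrays, a rise of 1.15 or 2.21-fold (adjusted p = 0.00638 in 12 arrays), where scrambled cells had a fall. The difference between these changes was 2.06 (SE 0.23, adjusted p = 0.0128 in 12 arrays, 0.00138 in 10). In 12 arrays the call was lost in 7 of 12 fits that left out 1 array (adjusted p 0.0567 to 0.0916), those without any KD1 array, either RA scrambled array or ESC scrambled replicate 2, and in 10 arrays Insig1 passed in every such fit.

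Abca1 read 10.14 and 10.09 in RA KD1 arrays and 9.41 and 9.67 in ESC KD1 arrays, against 10.20 and 9.90 in RA scrambled arrays and 8.36 and 8.31 in ESC scrambled arrays. The RA values of the 2 lines overlapped and their ESC values did not, which in ESC held for 45.2% of all genes. Its change with RA was smaller in KD1 by 1.14 on the log2 scale (adjusted p = 0.0151 in 10 arrays, 0.562 in 12). The call was lost without ESC KD1 replicate 2, RA scrambled replicate 1 or either RA KD1 array. Of the 16 enzymes, 0 passed in either fit (limma, 1 at an unadjusted p under 0.05 in 12 arrays and 3 in 10), with differences from -0.83 to 0.89. With the replicate block in 10 arrays 6 members passed, Ebp, Stard4, Tm7sf2 and Scd2 besides, against 14.4% of all genes.

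**Figure D5:**
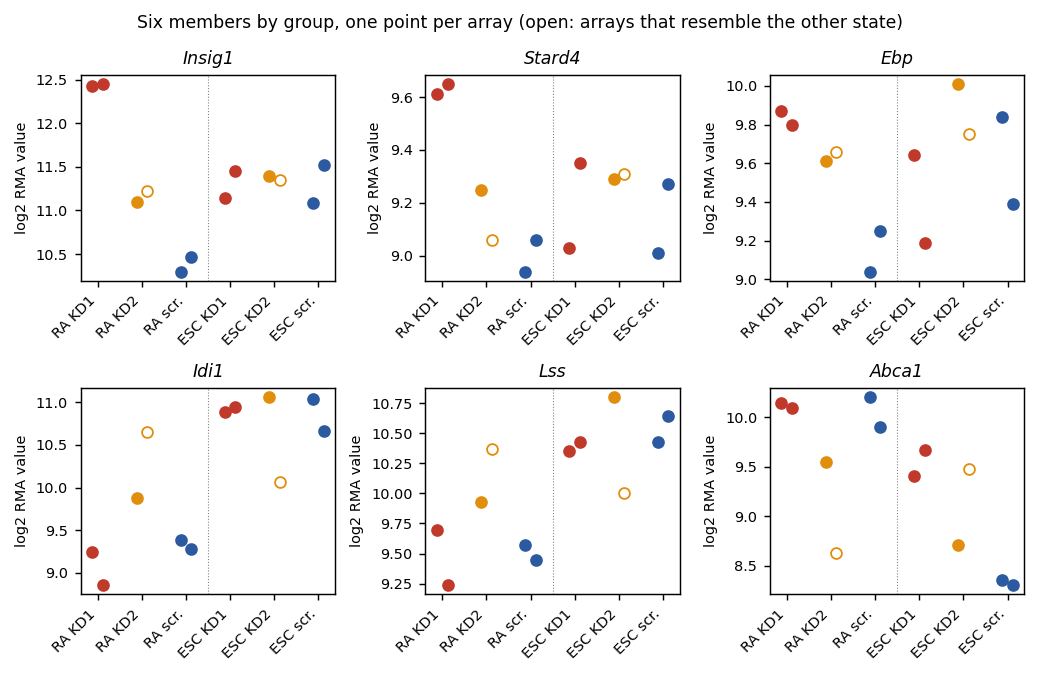
Log2 value of Insig1, Stard4, Ebp, Idi1, Lss and Abca1 in each array, by group, with RA groups left of the dotted line and ESC groups right of it. Each point is 1 array, and open points are the 2 arrays that resemble the other state. Insig1 is at 12.43 and 12.45 in RA KD1 and at 10.30 and 10.47 in RA scrambled, and Idi1 is at most 9.88 in the filled RA points and at least 10.66 in the filled ESC points.

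Another 50 measured genes of sterol and lipid metabolism, of 56 listed, were counted beside the set. After RA in scrambled cells 4 passed as higher and 3 as lower in 12 arrays, and 19 and 7 in 10 arrays. The shares in 12 arrays, 4 and 3 of 50, lie near the 8.14% and 5.66% of all genes. In 10 arrays 21.8% of all genes passed as higher and 20.8% as lower. Among the lower ones were Tmem97, an endoplasmic reticulum protein of sterol handling (-0.87, adjusted p = 0.0357 in 12 arrays), Lbr, which is also a sterol reductase (-0.68), and Aldoc, a glycolytic aldolase (-2.32). The higher ones included Fads3 (2.31), the phosphatidate phosphatase Lpin2 (1.36) and the elongase Elovl1 (1.27). In KD1 cells 8 passed as higher and 1 as lower in 12 arrays, against 7.02% and 4.26% of all genes, led by Me1, which makes NADPH (1.80), and Cyp27a1, a sterol hydroxylase (1.68), with Pltp, a phospholipid transfer protein, lower (-0.93). The 50 genes had a median difference of 0.32 in each of the 2 lines, beside -0.04 (scrambled) and -0.08 (KD1) for all genes.

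Between KD1 and scrambled cells after RA, 2 of these 50 genes passed as higher and 1 as lower in 12 arrays, against 2.32% of all genes in either direction. They were Cyp27a1 (1.39, adjusted p = 0.0463), the phosphatidate phosphatase Lpin1 (1.26, adjusted p = 0.0141) and the fatty acid carrier Fabp5 (-1.10, adjusted p = 0.0394). In 10 arrays 7 passed as higher and 6 as lower, against 12.1% of all genes. In the interaction, where 4.82% of all genes passed, 3 passed as higher in 10 arrays, Lpin1 (1.26), Tmem97 (0.87) and Nus1 (0.62), and 2 as lower, Pltp (-1.09) and Mid1ip1 (-0.70). In ESC the KD1 line had 1 gene that passed in 10 arrays, the elongase Elovl4, which was lower (-0.94). This is 1 of 50, near the 1.92% of all genes.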

How the data were processed

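RNA from 12 cultures was labelled and hybridised to 1-colour Affymetrix arrays. The authors deposited log2 values, made with RMA per the submitters' processing notes, and its version is not given in the sources used here. Of 35556 probe sets, 23410 were annotated, 21789 of them with 1 symbol, and the brightest of these per gene gave 19938 genes. Groups were fitted with limma 3.58.1 in R 4.3.3 (lmFit, eBayes with an intensity trend), with Benjamini-Hochberg adjustment over all genes and calls at an adjusted p under 0.05. The residual spread had 6 degrees of freedom in 12 arrays and 4 in 10. With the replicate block it had 4 in 12 arrays and only 2 in 10. With 2 arrays a group and 1 line per knockdown, p-values cover how arrays of a line vary and not how lines vary. In 12 arrays the shared spread also holds the distance between each displaced KD2 array and the other array of its label. Figures were drawn with Python 3.11.15 and matplotlib 3.10.9.

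The 31 measured members and all lists were chosen with earlier results of these data known. Named with values in every array are members called in at least 1 comparison, at most 3 a role, with the largest KD1 difference after RA first. Of the other lipid genes at most 3 called each way were named. Lss, Fdft1, Hmgcs1, Fdps, Sqle, Dhcr7, Sc5d, Mylip, Scd2 and further members were named after their values were seen. Replicate differences of the scrambled and KD1 groups correlated at 0.633 in ESC and 0.15 after RA, and at -0.0193 to 0.068 between states. Pairs with a KD2 group (0.141 to 0.251 within a state, -0.864 to 0.105 between states) include a displaced array and do not bear on this. The block is therefore the replicate number within a state. Alternatives were no trend, no dim genes, the mean over probe sets, median centring, the block and leaving out arrays. The script was tested on simulated data.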

Additional observations from a re-analysis of the deposited data

Results flagged for a closer look

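The change of Insig1 with RA differed between KD1 and scrambled cells by 2.06 on the log2 scale in 12 arrays, and by 2.06 in 10 arrays, by the interaction term of the limma fit (adjusted p = 0.0128 and 0.00138). Both RA KD1 arrays were above both ESC KD1 arrays, and both RA scrambled arrays were below both ESC scrambled arrays.

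The change of Abca1 with RA differed between the same lines by -1.14 in 10 arrays (adjusted p = 0.0151). In the fit of 12 arrays the same difference did not pass (adjusted p = 0.562).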

How the results depend on the processing

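Most counts moved with the 2 KD2 arrays that resemble the other state. Without them (10 arrays) the members that passed were 18 for RA against ESC in scrambled cells, 22 in KD1 and 6 in KD2, 2 and 3 for KD1 against scrambled in ESC and after RA, 1 for KD2 after RA, and 2 for the interaction. The replicate block in 12 arrays gave 10 and 12 for RA against ESC in scrambled and KD1 cells and 2 for KD1 after RA. With the block in 10 arrays the counts were 25, 30 and 16 for RA against ESC in scrambled, KD1 and KD2 cells, 4 and 10 for KD1 in ESC and after RA, 2 and 3 for KD2, and 6 for the interaction. The block ended no member call. Leaving out dim genes gave 10 for RA against ESC in scrambled cells, and centring gave 5 in KD1. Leaving out 1 array of 12 gave 0 to 14 for RA against ESC in scrambled cells (0 without any 1 scrambled or KD1 array, 11 to 14 without any 1 KD2 array), 0 to 12 in KD1 (0 to 3 without any 1 scrambled or KD1 array) and 0 to 0 in KD2. It gave 0 to 0 for KD1 in ESC, 1 to 1 after RA, 0 to 0 for KD2 in ESC, 0 to 3 after RA (3 without RA KD2 replicate 1) and 0 to 1 for the interaction. With 10 arrays, in fits added after seeing the data, leaving out 1 more scrambled or KD1 array gave 12 to 17, 14 to 25 (14 without RA KD1 replicate 2), 4 to 10, 1 to 2, 1 to 5, 0 to 0, 0 to 2 and 1 to 4 in the same order. Insig1 in KD1 against scrambled cells after RA passed in all of these fits.

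Signs turned in the KD2 comparisons. Between 12 and 10 arrays 11 of 31 members changed sign in RA against ESC, 7 in KD2 against scrambled cells in ESC and 7 after RA, and 0 in each of the other 5 comparisons. In RA against ESC within KD2, Pmvk was -0.59 in 10 arrays, -0.62 with the block and -0.03 centred, Abca1 was 0.84 and 0.70 in 10 arrays without and with the block, and Scd2 was 0.34 and 0.37. Leaving out 1 array there gave Idi1 -0.79 to 0.21, Pmvk -0.43 to 0.43, Abca1 -0.47 to 0.45, Lss -0.65 to 0.15, Fdps -0.38 to 0.20 and Scd2 -0.36 to 0.15. Without RA KD2 replicate 1 Idi1 was 0.09, without RA KD2 replicate 2 Pmvk was -0.16, and without ESC KD2 replicate 2 Abca1 was 0.38 and Scd2 0.09. With 2 arrays a group, small changes of members can be missed.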
